A study of Homo sapiens with 11 samples.

Results

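Human embryonic stem cells of the line H7 held in the medium 5iLA were compared with cells of the line H1 held in the medium t2iGo, both labelled naive, by RNA sequencing. The comparison rests on 6 of the 11 libraries of a study of pCCNE1, a transcript form of CCNE1 (cyclin E1) found in primates, and the libraries were chosen by culture: all 3 of 5iLA H7 and all 3 of t2iGo H1 that carried a short hairpin RNA (shRNA). In each culture 1 library carried a control shRNA, 1 the shRNA labelled uCCNE1 and 1 the shRNA against pCCNE1, and all 6 were taken 5 days after infection with the lentivirus. The other 5 libraries, primed H1 with the same 3 shRNAs and untreated H7 in the primed state and in 5iLA, are given only as side-by-side values. H7 was used in 5iLA and H1 in t2iGo, so cell line and medium cannot be told apart in any difference below. Each library is the only 1 of its culture and shRNA, the 3 shRNAs stand in for replicates, and the p-values reflect only how far these 6 libraries scatter, part of which may be technical. The labels do not say how long the cells had been in each medium or whether they were clones.

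Naive pluripotency is the state of the epiblast before implantation, and primed pluripotency resembles the epiblast after it. Naive human cells are known for the transcription factors KLF4, KLF17 and TFCP2L1, for germline-linked genes such as DPPA3 and DPPA5, and for low DNA methylation. Primed cells are known for ZIC2, SFRP2, THY1 and a high level of the methyltransferase DNMT3B. Media of the 5iLA type combine several kinase inhibitors with LIF and activin. Those of the t2iGo type combine inhibition of MEK and GSK3 with an inhibitor of protein kinase C.

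Levels are RPKM as deposited (reads scaled by transcript length and by library size), and triplets of values are always in the order control, uCCNE1 and pCCNE1 shRNA. Differences are 5iLA H7 minus t2iGo H1 on the log2(RPKM + 1) scale with their standard error, a scale that makes the change of weakly expressed genes look smaller. The estimated depth was 11.4 to 16.7 megareads in the 5iLA libraries and 6.38 to 14.2 megareads in the t2iGo libraries, so 1 read on a 2 kb transcript was worth 0.0299 to 0.0784 RPKM. Pearson's r of the log2 values across the tested genes was 0.949 to 0.963 between 5iLA libraries, 0.940 to 0.973 between t2iGo libraries and 0.676 to 0.750 between the cultures, where genes are not independent points. Small non-coding RNAs took 16.2% to 27.5% of the summed RPKM in 5iLA and 13.1% to 16.7% in t2iGo. The primed H1 libraries stood apart: small RNAs took 0.218% to 0.521% and histone genes 0.0104% to 0.0208% of their summed RPKM, against 0.902% to 2.08% for histone genes in t2iGo, and their RPKM summed to 341088 to 357685 against 165589 to 190718. Their values are therefore set beside the others with no comparison of small differences. Their part in the differences below was not tested beyond the scalings named next.

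Of 23287 genes in the table, 10762 had a mean of at least 1 RPKM over the 6 libraries and were tested with limma. A gene near 0 in 1 culture passes this filter only through its level in the other. This weighs on counts and medians of the gene lists below, such as the naive, germline-linked and metallothionein lists. At an adjusted p under 0.05, 6326 genes (58.8%) differed: 1791 (16.6%) were higher in 5iLA H7 and 4535 (42.1%) were lower. Without the uCCNE1 pair of libraries the lower genes numbered 2903. A difference of at least 3 on the log2 scale was found for 104 of the higher and 108 of the lower genes, and 6166 of the 6326 had the same sign in all 3 shRNA pairs. The median gene was lower in 5iLA H7 by -0.35 on the log2 scale (-0.15, -0.52 and -0.39 in the 3 pairs). Genes higher in 5iLA made up 28.3% of the calls with the deposited values, 47.0% after quantile normalization, 51.0% after median-ratio scaling and 40.8% after small RNAs and histone genes were taken out. The balance of higher and lower genes therefore depends on the scaling. For 4706 genes, 1763 higher and 2943 lower, the call and its direction were the same under all 3 of those scalings. A gene named below as higher or lower is among them unless it is said otherwise. Counts over gene lists are of calls with the deposited values unless other scalings are named. In 60.6% of tested genes, called or not, the values of the cultures did not overlap, so a lack of overlap is common here. The plot of mean levels shows how far the genes at both ends lie from this shift.

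**Figure D1:**
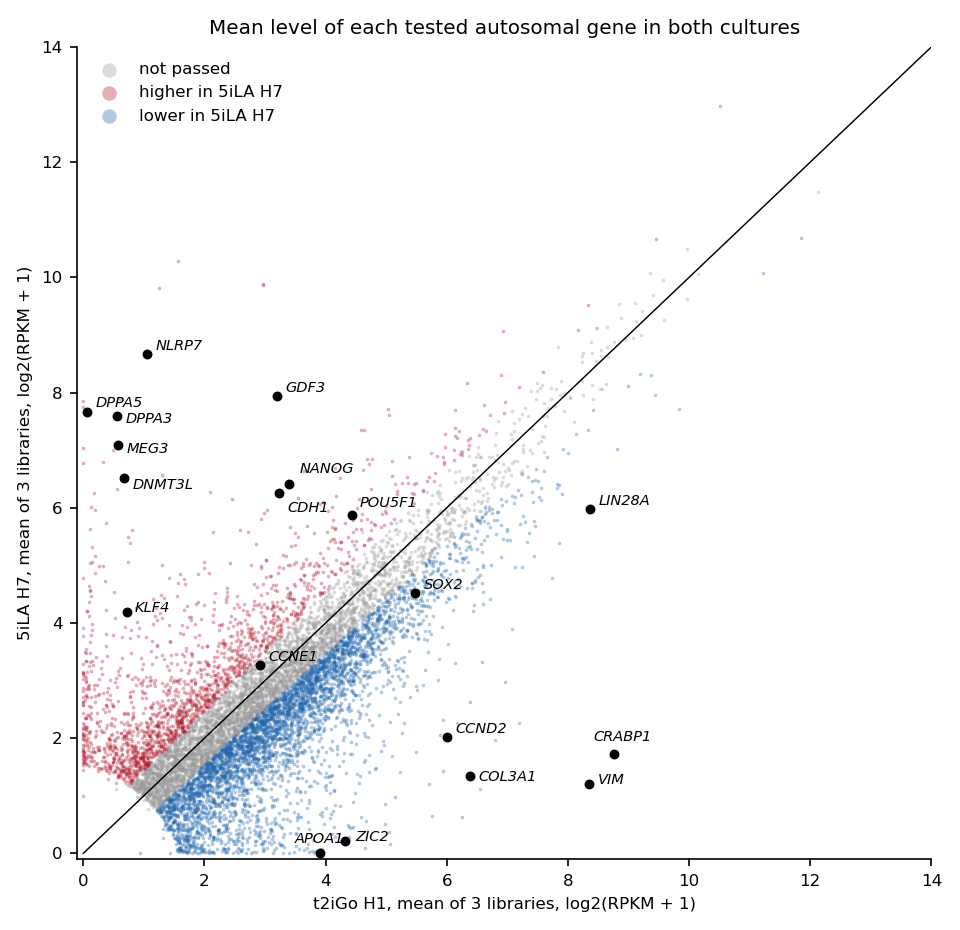
Mean log2(RPKM + 1) of the 3 t2iGo H1 libraries (x axis) against that of the 3 5iLA H7 libraries (y axis) for each tested autosomal gene. Red and blue points passed the limma test as higher or lower in 5iLA H7, grey points did not, the line marks equal levels, and named genes are black. DPPA5, DPPA3 and NLRP7 lie along the upper left edge, VIM and CRABP1 at the lower right, and CCNE1 near the line.

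The targeted gene was read as a check of the shRNAs. CCNE1, which drives entry into S phase as the partner of CDK2, stood at 14.1, 5.27 and 8.38 RPKM in 5iLA H7 and at 9.65, 5.38 and 5.25 RPKM in t2iGo H1. In both cultures the library with either CCNE1 shRNA was below the control library. The levels of the cultures overlapped, and CCNE1 did not pass the test between them (0.36 ± 0.22, adjusted p = 0.16). A value per gene cannot separate pCCNE1 from the other CCNE1 transcripts.

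The 12 genes highest in 5iLA H7 were NLRP7, DPPA5, KHDC1L, DPPA3, MEG3, NLRP2, MT1H, ZNF729, MT1G, DNMT3L, ZNF208 and HAVCR1, with differences from 7.61 to 5.76. The 12 genes lowest in 5iLA H7 included VIM, CRABP1, APOA2, PRTG, NTS, COL3A1, CRABP2, IGFBP5, UCHL1, LUM and CDH2, with differences from -7.15 to -4.51. The first set holds genes of oocytes and germ cells, an imprinted RNA, metallothioneins and zinc finger genes. The second holds the intermediate filament gene VIM, carriers of retinoic acid, collagen and lumican, a lipoprotein gene and N-cadherin.

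The promoters of the 2 genes with the largest difference at each end are shown with their CG dinucleotides, the sites of DNA methylation, since low methylation is a known feature of the naive state. They are the 250 bases before the gene's start, from RefSeq on build GRCh38.p14, in the direction of the gene, with each CG in capitals. The NLRP7 window is chr19:54947531-54947780 on the minus strand, that of DPPA5 chr6:73354277-73354526 on the minus strand, that of VIM chr10:17227991-17228240 on the plus strand and that of CRABP1 chr15:78340103-78340352 on the plus strand.
NLRP7: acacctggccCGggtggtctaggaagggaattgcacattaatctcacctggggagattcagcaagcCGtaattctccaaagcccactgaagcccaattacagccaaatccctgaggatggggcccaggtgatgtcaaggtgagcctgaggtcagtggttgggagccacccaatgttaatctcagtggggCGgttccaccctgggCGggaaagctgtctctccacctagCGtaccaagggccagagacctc
DPPA5: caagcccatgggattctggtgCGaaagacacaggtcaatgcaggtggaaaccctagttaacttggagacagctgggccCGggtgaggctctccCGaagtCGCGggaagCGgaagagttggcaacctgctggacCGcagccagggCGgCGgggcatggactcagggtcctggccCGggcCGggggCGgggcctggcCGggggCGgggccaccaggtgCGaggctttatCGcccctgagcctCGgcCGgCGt
VIM: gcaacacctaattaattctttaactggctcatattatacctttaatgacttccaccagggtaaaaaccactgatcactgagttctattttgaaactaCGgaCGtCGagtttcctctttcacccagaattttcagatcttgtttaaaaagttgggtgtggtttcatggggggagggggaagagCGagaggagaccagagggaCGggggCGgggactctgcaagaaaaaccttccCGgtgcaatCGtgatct
CRABP1: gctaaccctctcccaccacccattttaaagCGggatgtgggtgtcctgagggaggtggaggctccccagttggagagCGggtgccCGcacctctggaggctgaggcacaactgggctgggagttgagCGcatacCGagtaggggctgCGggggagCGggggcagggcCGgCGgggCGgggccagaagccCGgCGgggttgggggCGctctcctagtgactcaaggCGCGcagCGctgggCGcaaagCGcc
These windows hold 5, 19, 8 and 18 CG dinucleotides in that order. Of the 12 genes highest in 5iLA, 9 matched a RefSeq promoter, and these held 2 to 22 CGs with a median of 7. Of the 12 lowest, 9 matched as well, and these held 0 to 27 with a median of 17. Among all tested genes, 8666 matched, with a median of 21, and the medians of all genes called higher and lower were 20 and 21. Both ends thus held CG-rich and CG-poor windows. These counts are a description of genes chosen by their change, with no test.

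Of the naive genes named next, all but KLF17 were high in 5iLA H7, and all were at or near 0 in the t2iGo H1 libraries. DPPA3, a maternal factor that shields DNA from methylation changes in the zygote, stood at 259.6, 172 and 156 RPKM in 5iLA and at 0.768, 0.339 and 0.357 RPKM in t2iGo (7.02 ± 0.23, adjusted p = 2.80e-16). DPPA5, an RNA-binding protein of pluripotent and germ cells, stood at 273, 156 and 195 RPKM against 0.138, 0 and 0 RPKM (7.61 ± 0.23). Every 5iLA library was above every t2iGo library for both genes, and the cultures do not overlap in 60.6% of all tested genes. KLF4, a zinc finger factor of the naive network, stood at 20.2, 14 and 18.3 RPKM against 0.666, 0.626 and 0.634 RPKM, 27.3 times as high on average (3.48 ± 0.20). TFCP2L1, another factor of that network, stood at 8.17, 7.16 and 9.76 RPKM against 0.223, 0.21 and 0.236 RPKM (2.93 ± 0.19). KLF17 stayed below the filter, at 0.728, 0.693 and 1.23 RPKM in 5iLA and at 0, 0.0325 and 0 RPKM in t2iGo, and every 5iLA library was above every t2iGo library.

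Of the 16 naive transcription factors in the table, 11 passed the filter, 10 were higher in 5iLA H7 and 1 (KLF10, -1.24) was lower, with a median of 2.16 beside -0.35 over all genes. KLF5 stood at 28.8, 22.2 and 28.6 RPKM against 0.95, 1.6 and 2.79 RPKM (3.35 ± 0.23), and 0.589 to 0.75 RPKM in primed H1. Of the 13 naive surface and membrane genes, 11 were tested, 7 were higher, 1 was lower and 3 did not pass, with a median of 1.35. The counts of both lists stand beside 16.6% higher and 42.1% lower over all tested genes. SUSD2, a surface protein used to sort naive cells, stood at 19.3, 13.8 and 39.9 RPKM against 0.479, 0.383 and 0.387 RPKM (4.03 ± 0.24). The phosphatase gene ALPPL2, which has near copies that could share its reads, stood at 156, 28.3 and 32.3 RPKM against 0.143, 0.331 and 0.445 RPKM (5.36 ± 0.33). Its control library was high above the 2 libraries with a CCNE1 shRNA in 5iLA, and all 3 were above t2iGo. The lower member was BST2, an interferon-induced membrane protein, at 2.77, 0.216 and 0 RPKM against 21, 15.5 and 13.5 RPKM (-3.39 ± 0.23).

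Genes that naive and primed cells share moved in both directions. Of 17 tested genes of core pluripotency, 8 were higher in 5iLA H7, 4 were lower (2 of these under all scalings) and 5 did not pass, with a median of 0.56. The shares over all tested genes were 16.6% higher and 42.1% lower. POU5F1, which encodes the central factor OCT4, stood at 84.6, 44.2 and 51.2 RPKM in 5iLA and at 34.6, 18.2 and 13.6 RPKM in t2iGo (1.45 ± 0.25). NANOG, its partner, stood at 129.7, 62 and 74.7 RPKM against 22.9, 8.21 and 4.29 RPKM (3.02 ± 0.27). The cultures did not overlap for either gene. SOX2 went the other way, with 31.2, 16.5 and 20.7 RPKM in 5iLA and 42, 44.1 and 44.5 RPKM in t2iGo (-0.95 ± 0.26). Primed H1 held 275 to 351 RPKM of POU5F1 and 101 to 151 RPKM of SOX2, above both cultures, and 18.7 to 51.2 RPKM of NANOG.

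ZFP42, known as REX1, stood at 52.3, 36.8 and 35.4 RPKM against 0.823, 0.466 and 0.887 RPKM (4.61 ± 0.21), and the primed H1 libraries held 45.8 to 83 RPKM. The 3 t2iGo libraries were thus the lowest of the 9 shRNA libraries for it. LIN28A, which blocks maturation of let-7 microRNAs, was lower in 5iLA, at 66.8, 61.7 and 57.9 RPKM against 350.3, 347 and 296 RPKM (-2.39 ± 0.28).

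**Figure D2:**
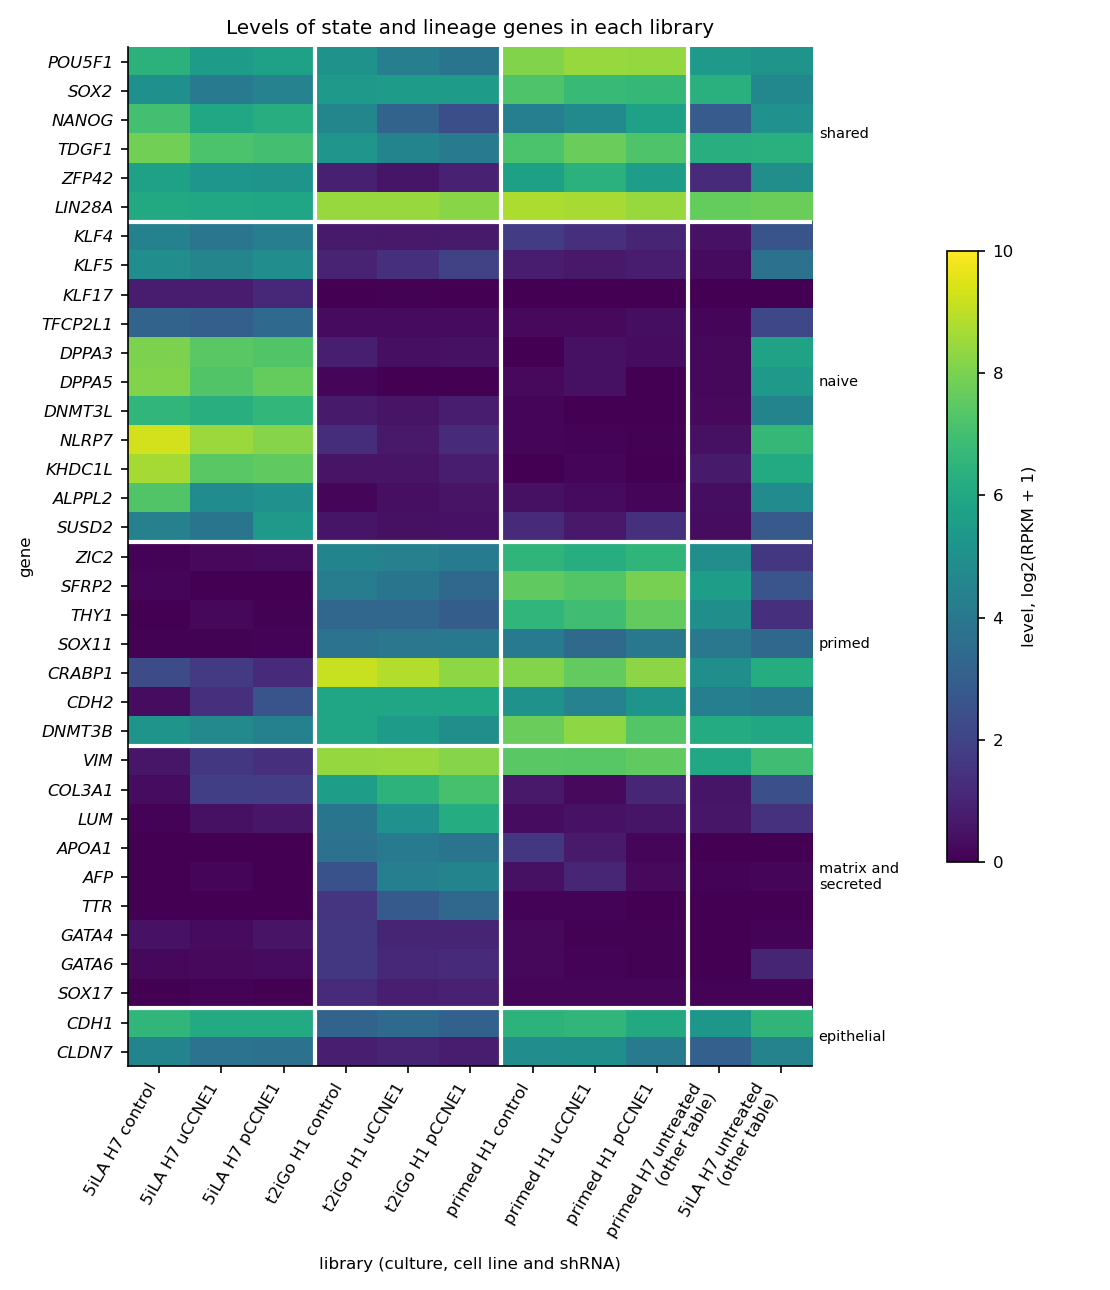
Level of each gene as log2(RPKM + 1), shown by colour, in the 6 libraries compared, the 3 primed H1 libraries and the 2 untreated H7 libraries of the other table, which was normalized separately. Naive genes are brighter in the 5iLA columns than in t2iGo and primed columns, except for KLF17, which is dark in every column. VIM, ZIC2 and CRABP1 are bright in t2iGo and primed H1 and dark in the 5iLA shRNA columns.

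Primed genes were high in the t2iGo H1 libraries. Of 24 tested genes on the primed list, 22 were lower in 5iLA H7 (20 of these under all scalings) and 2 were higher, with a median of -3.05. The shares over all tested genes were 42.1% lower and 16.6% higher. ZIC2, a zinc finger factor of primed cells, stood at 0.0591, 0.205 and 0.224 RPKM in 5iLA and at 22, 19.4 and 16.2 RPKM in t2iGo (-4.11 ± 0.20). SFRP2, a secreted WNT modulator, stood at 0.0913, 0 and 0 RPKM against 17.2, 13.8 and 9.51 RPKM (-3.78 ± 0.20). The surface gene THY1 stood at 0.0248, 0.147 and 0.0314 RPKM against 8.75, 8.91 and 6.73 RPKM (-3.09 ± 0.19), and the neural factor SOX11 at 0.0451, 0.0382 and 0.0733 RPKM against 12.9, 14.7 and 15.3 RPKM (-3.86 ± 0.19). The cultures did not overlap for these 4 genes, as for 60.6% of all tested genes.

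Primed H1 lay higher still for part of this list. Its libraries held 74 to 92.3 RPKM of ZIC2, 160.1 to 246 RPKM of SFRP2 and 94.5 to 195 RPKM of THY1, above t2iGo, but 10.1 to 16.9 RPKM of SOX11, overlapping the t2iGo values. The 2 members that were higher in 5iLA were ETV4 (0.59) and LECT1 (chondromodulin), which stood at 22.4, 21.8 and 33.8 RPKM against 0.052, 0.343 and 0.473 RPKM (4.38 ± 0.20) and at 50.9 to 95.4 RPKM in primed H1. DNMT3B differed little, at 35.1, 25.3 and 20.2 RPKM against 57.6, 45.5 and 29.4 RPKM (-0.68 ± 0.24), and other scalings ended its call.

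By the markers named next the t2iGo H1 libraries went against their naive label. The highest value of KLF4, TFCP2L1, DPPA3, DPPA5, DNMT3L and ALPPL2 in any t2iGo library was 0.768 RPKM, for DPPA3, and primed H1 held 0 to 0.371 RPKM of DPPA3 and 1.08 to 2.36 RPKM of KLF4. Not every naive gene was that low in t2iGo. SLC25A16 stood at 4.79 to 9.26 RPKM there and at 1.96 to 2.12 RPKM in primed H1. KLF5 stood at 0.95 to 2.79 RPKM there and at 0.589 to 0.75 RPKM in primed H1, and both were higher in 5iLA. The 5iLA libraries matched their label by the markers named first, while KLF17 did not exceed 1.23 RPKM in them. Untreated 5iLA H7, in the other table, held 52.7 RPKM of DPPA3, 42 RPKM of DPPA5 and 5.00 RPKM of KLF4, and at the same time 119.9 RPKM of VIM, 143 RPKM of CRABP2 and 77.1 RPKM of PRTG. Both naive and primed genes were thus read in that library, while the 5iLA libraries with an shRNA held 0.507 to 2.09 RPKM of VIM. In bulk RNA, fewer cells of a type and less RNA per cell cannot be told apart.

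Germline-linked genes had the highest median difference of the lists described here. Of 24 such genes in the table, 17 were tested, 16 were higher in 5iLA H7, beside 16.6% of all tested genes, and DPPA4 (0.50) did not pass. Members near 0 in t2iGo could be tested only through their 5iLA level, so these counts and the median depend partly on the filter. The median was 4.69, and the summed RPKM of the list was 1507 to 2384 in 5iLA and 62.8 to 94 in t2iGo. NLRP7, which oocytes need for maternal imprinting, stood at 628, 361 and 293 RPKM against 1.47, 0.600 and 1.28 RPKM (7.61 ± 0.26). KHDC1L, a relative of oocyte proteins, stood at 407, 171 and 187 RPKM against 0.438, 0.432 and 0.724 RPKM (7.28 ± 0.26). The growth factor GDF3 stood at 218, 252 and 268 RPKM against 16.6, 7.58 and 4.2 RPKM (4.74 ± 0.31). Meiotic genes were part of the group: SYCP3, of the synaptonemal complex, stood at 70.3, 31.2 and 26.5 RPKM against 0.14, 0 and 0.166 RPKM (5.18 ± 0.24), and HORMAD1, of the chromosome axis, at 35.4, 22.7 and 28.2 RPKM against 0.206, 0.226 and 0 RPKM (4.69 ± 0.21).

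The germ cell regulators DAZL and DDX4 were below the filter, and DAZL was the higher of the cultures in t2iGo, at 1.57 to 1.98 RPKM against 0 to 0.0285 RPKM in 5iLA. The list of primordial germ cell genes, which shares DPPA3 and PRDM14 with those above, had 7 tested genes. Of these 6 were higher, beside 16.6% of all tested genes, with a median of 1.41. TFAP2C stood at 19.9, 14.9 and 15.6 RPKM against 5.56, 5.78 and 5.58 RPKM (1.41 ± 0.22) and SOX15 at 3.79, 2.31 and 1.95 RPKM against 0.434, 0.399 and 0.249 RPKM (1.41 ± 0.19). TFAP2C was thus read in both cultures, whereas SOX15 was below 1 RPKM in every t2iGo library.

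Genes of the DNA methylation machinery are given by role. DNMT3L, a partner of the de novo methyltransferases without activity of its own, stood at 96, 77.8 and 98 RPKM in 5iLA and at 0.648, 0.455 and 0.701 RPKM in t2iGo (5.83 ± 0.22). ZFP57, which guards methylation at imprinted loci, stood at 12.2, 10.1 and 8.52 RPKM against 0.0776, 0.171 and 0 RPKM (3.37 ± 0.19). DNMT1, the maintenance methyltransferase, was lower in 5iLA, at 5.92, 6.14 and 6.36 RPKM against 14.9, 14.3 and 10.3 RPKM (-0.97 ± 0.22). The demethylase TET3 was lower as well, at 0.682, 0.642 and 0.67 RPKM against 2.16, 2.29 and 1.79 RPKM (-0.88 ± 0.19). Of all 15 genes, 3 were higher, 6 lower (3 of these under all scalings) and 6 did not pass, with a median of -0.21. These shares are close to the 16.6% higher and 42.1% lower over all tested genes.

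Imprinted genes, expressed from a single parental allele, moved in both directions. Of 18 tested, 6 were higher and 9 lower (7 of these under all scalings), with a median of -0.44. Over all tested genes 16.6% were higher and 42.1% lower, with a median of -0.35. MEG3, a maternally expressed RNA, stood at 151, 154 and 108 RPKM against 0.604, 0.184 and 0.719 RPKM (6.53 ± 0.24). H19, another maternally expressed RNA, stood at 7.89, 16.3 and 24.7 RPKM against 0.0616, 0.18 and 0.0688 RPKM (3.84 ± 0.23), while its neighbour, the growth factor IGF2, stood at 0.413, 0.299 and 0.543 RPKM against 9.46, 14.2 and 23.2 RPKM (-3.47 ± 0.22). H19 and IGF2 thus moved in opposite directions. The paternally expressed PEG3 stood at 6.82, 6.65 and 3.23 RPKM against 0.0275, 0.0154 and 0.0228 RPKM (2.63 ± 0.21), with 5.68 to 7.8 RPKM in primed H1, so that the t2iGo libraries were below primed H1 of the same line. PEG10, of retroviral origin, stood at 6.9, 4.82 and 6.95 RPKM against 37.9, 44.9 and 52.2 RPKM (-2.67 ± 0.23). MEG8 was listed at 0 in every t2iGo library and stood at 4.45, 5.18 and 5.89 RPKM in 5iLA. Allelic expression was not analysed here.

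Several of the genes highest in 5iLA were neighbours on their chromosomes. Next to the metallothionein MT1H on chromosome 16, MT1E, MT1M, MT1F, MT1G and MT1X were all higher, by 2.63 to 5.88, and NUP93 beyond them did not pass (-0.52). Metallothioneins bind zinc and copper, and all 7 tested members were higher, beside 16.6% of all tested genes. Their median was 3.56, and the summed RPKM of the list was 291 to 549.5 in 5iLA against 15.5 to 19.5 in t2iGo. MT1G stood at 65.3, 47.4 and 82.5 RPKM against 0.311, 0 and 0 RPKM, and MT1X, the member most present in t2iGo, at 74.5, 63.8 and 82.3 RPKM against 10.2, 7.2 and 8.51 RPKM. On chromosome 6, KHDC1L, DPPA5, C6orf221 (KHDC3L), OOEP and DDX43 were consecutive tested genes and were higher by 2.72 to 7.61, with the lower gene OGFRL1 (-2.16) before them and SMAP1 (-0.75, a call that other scalings ended) before that. On chromosome 12, GDF3, DPPA3 and NANOG were consecutive tested genes and were higher, and SLC2A3, a glucose transporter close by, was lower (-1.41).

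On chromosome 19, the zinc finger genes ZNF208, ZNF257, ZNF676, ZNF729, ZNF98, ZNF492 and ZNF99 were higher by 3.05 to 6.08. Genes of this type bind repeats and recruit TRIM28. ZNF729 stood at 97.4, 62.1 and 70.5 RPKM against 0.269, 0.0523 and 0.0791 RPKM and was listed at 0 in all primed H1 libraries. The adjacent ZNF43 was lower (-1.50) and ZNF100 did not pass (0.02). Over all 212 tested ZNF genes of chromosome 19, 45 were higher and 57 lower (25 of these under all scalings), with a median of -0.16. Over the 207 on other chromosomes 25 were higher and 112 lower (72 of these under all scalings), with a median of -0.59. After quantile normalization these medians were 0.13 and -0.30. Among all tested genes 16.6% were higher and 42.1% lower, with a median of -0.35. Higher values in the neighbouring genes named above thus stood beside lower values in other zinc finger genes of the chromosome. Genes of the ZNF, NLRP, KHDC and metallothionein families have near copies, so reads could be split between them and single values are uncertain. The windows shown were picked after their values were seen.

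**Figure D3:**
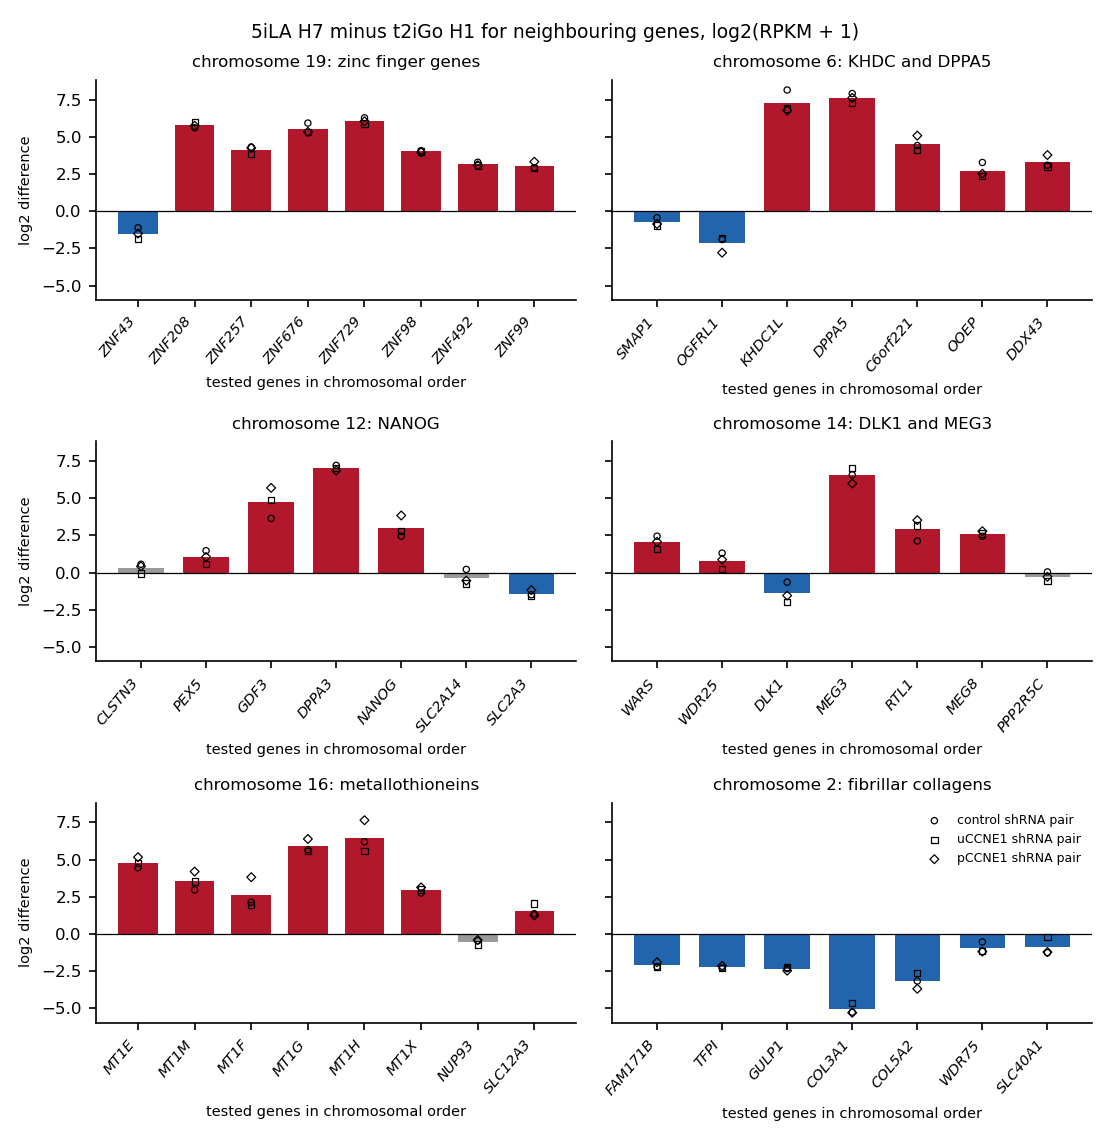
Difference 5iLA H7 minus t2iGo H1 on the log2(RPKM + 1) scale (y axis) for tested genes in chromosomal order (x axis) in 6 windows. Bars give the limma estimate, coloured red for higher, blue for lower and grey for not passed, and the circle, square and diamond give the control, uCCNE1 and pCCNE1 pair. All 7 zinc finger genes from ZNF208 to ZNF99 are red, and the collagen window on chromosome 2 is blue throughout.

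Genes of mesenchyme and extracellular matrix were high in the t2iGo H1 libraries. VIM, the intermediate filament of mesenchymal and primed cells, stood at 0.507, 2.09 and 1.6 RPKM in 5iLA and at 339.9, 346 and 292 RPKM in t2iGo, 233 times as high there on average (-7.15 ± 0.26). The fibrillar collagen gene COL3A1 stood at 0.269, 2.6 and 2.52 RPKM against 47.3, 86.9 and 137 RPKM (-5.05 ± 0.23), and the matrix proteoglycan LUM at 0.0569, 0.38 and 0.503 RPKM against 13.9, 32.7 and 71.5 RPKM (-4.67 ± 0.25). Primed H1 held 169.9 to 189.7 RPKM of VIM but only 0.18 to 1.08 RPKM of COL3A1 and 0.249 to 0.463 RPKM of LUM. COL3A1 and LUM were thus higher in each t2iGo library than in any of the other 8 libraries, whereas VIM was also high in primed H1. For other genes of the list the primed H1 values overlapped or exceeded those of t2iGo: COL1A1 stood at 3.7 to 6.73 RPKM in t2iGo and 5.53 to 20.6 RPKM in primed H1, S100A4 at 9.87 to 12.2 and 18.9 to 34 RPKM, and COL5A2 at 9.51 to 18.8 and 7.27 to 24.8 RPKM. COL3A1 and LUM were named by the rule for the largest differences and do not stand for the list. COL3A1 and LUM were lowest in the control library within t2iGo.

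Of 21 tested fibroblast and collagen genes, 18 were lower in 5iLA (16 of these under all scalings), 1 was higher (COL1A2, 1.32) and 2 did not pass. The median was -2.21, and the summed RPKM was 118 to 203 in 5iLA against 751 to 1001 in t2iGo. Of all tested genes, 42.1% were lower and 16.6% higher. The fibroblast marker DCN was below the filter, at 0.604 to 2.71 RPKM in t2iGo, and FAP and TCF21 did not exceed 0.1 RPKM in either culture. Of 12 basement membrane genes, 10 were lower (8 of these under all scalings) and none was higher, with a median of -1.85. LAMB1 stood at 6.93, 11.6 and 9.09 RPKM against 31.5, 39.1 and 45.7 RPKM (-1.97 ± 0.23). Whether these genes came from a share of differentiated cells was not tested.

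Genes of epithelial junctions went the other way. E-cadherin, CDH1, stood at 93.8, 67.7 and 67.4 RPKM in 5iLA and at 8.09, 9.63 and 7.49 RPKM in t2iGo (3.03 ± 0.24), with 65.9 to 95.5 RPKM in primed H1. N-cadherin, CDH2, stood at 0.263, 1.52 and 5.07 RPKM against 60.1, 59.96 and 59.9 RPKM (-4.51 ± 0.29). The regulators of epithelial to mesenchymal transition ZEB2, at 0.0245, 0.23 and 0.209 RPKM against 6.91, 8.9 and 7.84 RPKM (-2.94 ± 0.19), and SNAI2, at 0.0286, 0.127 and 0.216 RPKM against 4.96, 6.91 and 8.76 RPKM (-2.78 ± 0.19), followed CDH2. Of 14 tested cadherins and regulators of this transition, 8 were lower, 4 were higher, CDH1 among them, and 2 did not pass. Both this count and that of junction genes below stand beside 42.1% lower and 16.6% higher over all tested genes. Another such regulator, TWIST1, did not pass (0.43). CLDN7, a claudin of tight junctions, stood at 22, 12.9 and 12.5 RPKM against 0.794, 1.01 and 0.735 RPKM (3.14 ± 0.21). Of 11 junction genes, 8 were higher in 5iLA and 2 lower, with no lower call under all scalings, and the median was 1.14. For CDH1 and CLDN7 the t2iGo libraries were below primed H1, which has the same line.

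Markers of other cell types were read as well, beside 42.1% lower and 16.6% higher over all tested genes. Of 12 tested genes for secreted proteins of liver and yolk sac, 11 were lower in 5iLA (10 of these under all scalings) and 1 (APOE, 1.14) was higher. The median was -2.82, and the summed RPKM was 43.9 to 67 against 135 to 252. APOA1 was listed at 0 in every 5iLA library and stood at 12.6, 16.5 and 13.2 RPKM in t2iGo. AFP, the fetal serum protein, stood at 0, 0.0883 and 0 RPKM against 4.71, 18.7 and 21.6 RPKM (-3.73 ± 0.27), and TTR was listed at 0 in 5iLA and stood at 1.85, 6.1 and 9.12 RPKM in t2iGo. In t2iGo, AFP and TTR were lowest in the control library. Of 17 endoderm transcription factors in the table, 3 were tested: HNF4A (0.76) and PRDM1 (0.63) were higher in 5iLA and EOMES (-1.58) was lower, with a summed level over the list of 6.85 to 7.78 RPKM in 5iLA and 10.3 to 18.2 RPKM in t2iGo. GATA4, GATA6 and SOX17 stayed below the filter, at 1.03 to 2.05, 1.18 to 2.05 and 0.795 to 1.33 RPKM in t2iGo and at most 0.431 RPKM, for GATA4, in 5iLA. ALB, the adult liver marker, did not exceed 0.425 RPKM in t2iGo. The part of other cell types in these values was not tested.

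Of 16 endothelial and blood genes only KDR and TEK were tested, and both were lower in 5iLA: KDR, a receptor of vascular growth factor, stood at 0.15, 0.264 and 0.0948 RPKM against 24.8, 17 and 17.7 RPKM (-4.14 ± 0.20) and at 20.9 to 41.9 RPKM in primed H1. The summed level of the list was 2.09 to 4.3 RPKM in 5iLA and 25 to 30.1 RPKM in t2iGo, and the endothelial marker PECAM1 was at 0.0764 to 0.114 and 0 to 0.0338 RPKM. Of 22 neural and ectoderm genes, 4 were tested and 3 were lower, among them NES, an intermediate filament of progenitors, at 6.69, 5.42 and 3.78 RPKM against 68.3, 87.9 and 93.6 RPKM (-3.76 ± 0.25). The sum was 17.6 to 21.7 RPKM in 5iLA and 99.8 to 126 RPKM in t2iGo, and the neural regulator PAX6 was at 0.166 to 0.28 RPKM in t2iGo. Of 25 trophoblast and amnion genes, 8 were tested, 4 were higher and 4 lower (1 under all scalings). CGA, the shared subunit of glycoprotein hormones, stood at 39.5, 51.9 and 42 RPKM against 0, 1.07 and 1.26 RPKM (4.76 ± 0.23). The keratin KRT18 was lower in 5iLA, at 18.6, 35.8 and 31.3 RPKM against 89.2, 90.5 and 97.2 RPKM (-1.71 ± 0.27). The sum was 98 to 145 RPKM in 5iLA and 136 to 143 RPKM in t2iGo, and the trophoblast regulators CDX2 and ELF5 were at 0.0507 to 0.32 and 0.0297 to 0.235 RPKM in 5iLA. Of 5 tested mesoderm factors 4 were lower (2 under all scalings), and none was higher. These lists had few tested members, and over all tested genes 42.1% were lower and 16.6% higher.

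**Figure D4:**
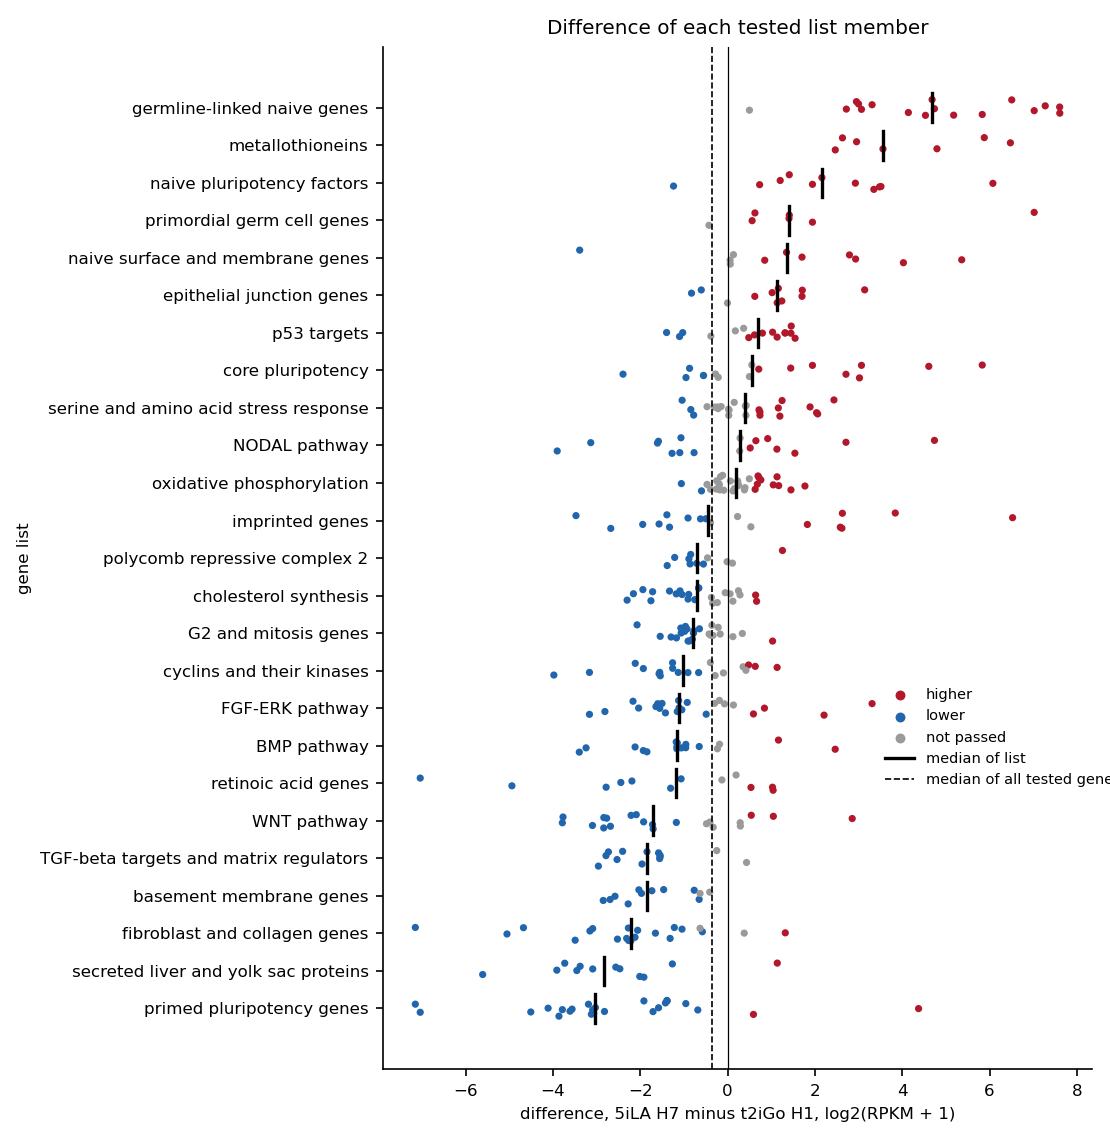
Difference 5iLA H7 minus t2iGo H1 on the log2(RPKM + 1) scale (x axis) of each tested member of the gene lists named on the y axis. Points are genes coloured by call, the short black bar is the median of the list, and the dashed line is the median of all tested genes, -0.35. The germline-linked list has the highest median (4.69) and the primed list the lowest of those shown (-3.05).

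Signalling genes are given by role, beside 42.1% lower and 16.6% higher over all tested genes. In the NODAL pathway, which holds primed cells in pluripotency, the ligand GDF3 and the coreceptor TDGF1 (234, 142 and 128 RPKM against 36.4, 21.8 and 17.1 RPKM, 2.71 ± 0.26) were higher in 5iLA. The antagonists FST (2.27, 5.37 and 4.29 RPKM against 69.5, 76.3 and 66.4 RPKM, -3.90 ± 0.24) and CER1 (0.108, 0.24 and 0 RPKM against 30.0, 6.03 and 3.25 RPKM, -3.13 ± 0.32) were lower. Of 17 tested genes, 7 were higher and 8 lower, with a median of 0.28. The medians of the 3 shRNA pairs were -0.39, 0.09 and 0.07, so their sign differed between pairs.

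In the FGF and ERK pathway the ligand FGF4 (22.8, 9.995 and 9.22 RPKM against 0.632, 0.464 and 0.145 RPKM, 3.31 ± 0.21) was higher and the receptor FGFR1 (1.8, 3.81 and 10 RPKM against 26.7, 25 and 17.5 RPKM, -2.16 ± 0.31) was lower. Its feedback inhibitor SPRY2 stood at 1.66, 1.65 and 1.44 RPKM against 12.4, 8.85 and 7.99 RPKM (-2.04 ± 0.20), and 15 of 23 tested genes were lower (11 under all scalings) against 4 higher, with a median of -1.11. In the WNT pathway the receptor FZD5 (74.8, 39.4 and 34.8 RPKM against 5.64, 5.18 and 6.05 RPKM, 2.86 ± 0.25) was higher and the receptor FZD7 (0.33, 0.200 and 0.246 RPKM against 16.6, 18.6 and 13.6 RPKM, -3.77 ± 0.20) lower. The ligand WNT5A, the target LEF1 and the antagonist DKK1 were all lower (-3.09, -2.83 and -2.84), and 13 of 21 tested genes were lower against 3 higher, with a median of -1.72.

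In the BMP pathway the target ID3 was listed at 0 in every 5iLA library and stood at 15.1, 9.57 and 5.84 RPKM in t2iGo, and ID2 stood at 0.885, 2.14 and 1.7 RPKM against 26.8, 20.1 and 22 RPKM (-3.24 ± 0.23). Here 13 of 17 genes were lower, 8 of them under all scalings, and 2 were higher, with a median of -1.15. Of 13 TGF-beta targets and matrix regulators, 11 were lower and none was higher (median -1.84). Of 12 retinoic acid genes, 7 were lower and 3 higher. CRABP1, which carries retinoic acid in the cytoplasm, stood at 3.93, 2.22 and 1.29 RPKM against 572, 460.2 and 311 RPKM (-7.04 ± 0.25), and its relative CRABP2 at 4.29, 3.46 and 3.65 RPKM against 162, 153 and 125 RPKM (-4.94 ± 0.24).

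Cell cycle genes are given by phase, beside 42.1% lower and 16.6% higher over all tested genes. CCND2, a cyclin of G1, stood at 2.31, 5.87 and 1.94 RPKM against 62.4, 63.3 and 63.2 RPKM (-3.98 ± 0.25), and CCND1 at 2.62, 3.68 and 3.61 RPKM against 38.7, 43.6 and 30.6 RPKM (-3.16 ± 0.23). CCNE2, the close relative of CCNE1, stood at 0.347, 1.1 and 0.525 RPKM against 3.12, 3.37 and 4.89 RPKM (-1.54 ± 0.20), and RB1, which restrains entry into S phase, at 0.575, 1.17 and 1.27 RPKM against 6.98, 7.12 and 8.72 RPKM (-2.11 ± 0.20). The inhibitor CDKN1A was higher (1.14). Of 20 cyclins, kinases and inhibitors, 12 were lower and 3 higher (median -1.02). Of 24 genes of G2 and mitosis, 15 were lower (12 under all scalings) and 1 was higher (median -0.79). Of 26 replication genes, 11 were lower, 4 of these under all scalings, and 3 were higher (median -0.44), so the share of lower genes was close to that of all genes.

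Metabolic and stress genes are given by pathway, beside 42.1% lower and 16.6% higher over all tested genes. Of 24 cholesterol synthesis genes, 14 were lower in 5iLA and 2 higher (median -0.71), led by HMGCS1, at the start of the pathway, at 24, 17.6 and 19.6 RPKM against 117, 92.1 and 103 RPKM (-2.30 ± 0.25). Of 32 respiratory chain genes, 10 were higher, 2 lower and 20 did not pass (median 0.19, and 0.54, -0.16 and 0.17 in the 3 shRNA pairs). COX5B stood at 133, 71.3 and 84 RPKM against 39.4, 30.9 and 30.1 RPKM (1.45 ± 0.26). Glycolysis split, with 6 of 23 genes higher and 7 lower: PFKL, the liver form of phosphofructokinase, was higher (1.93) and PFKM, the muscle form, lower (-1.83). Of 16 p53 targets, 10 were higher and 3 lower (median 0.71), and MDM2, which degrades p53, stood at 50.4, 37.4 and 42.1 RPKM against 16, 17.5 and 16.4 RPKM (1.32 ± 0.24).

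Of 25 genes of serine synthesis and the amino acid stress response, 10 were higher and 3 lower. The median was 0.41, and 0.68, -0.05 and 0.38 in the 3 shRNA pairs. GDF15 stood at 8.5, 3.93 and 4.09 RPKM against 0.193, 0.0947 and 0.148 RPKM (2.44 ± 0.21). Of 18 chaperones of the endoplasmic reticulum, 5 were higher and none was lower, and 13 did not pass. Of 11 subunits of the polycomb repressive complex, 7 were lower (5 under all scalings) and only AEBP2 (1.26) was higher, while the methyltransferase EZH2 stood at 12.3, 9.81 and 10.1 RPKM against 19.5, 21.4 and 19.7 RPKM (-0.86 ± 0.23). Of 14 cytosolic heat shock genes, 2 were higher and 4 lower (3 under all scalings), beside 16.6% higher and 42.1% lower over all tested genes.

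Within each culture the shRNAs were single libraries, so their differences have no replicate check and no test. In 5iLA H7, the uCCNE1 and pCCNE1 libraries differed from control by -2.42 and -2.24 for ALPPL2, by -1.05 and -0.79 for NANOG and by 0.997 and 2.26 for CDH2. In t2iGo H1 they differed by -2.14 and -2.87 for CER1, by -1.37 and -2.17 for NANOG, by 1.78 and 1.99 for AFP and by 1.18 and 2.28 for LUM. For LUM and AFP the 2 CCNE1 shRNA libraries of t2iGo were both above control, and for NANOG and POU5F1 both were below control in either culture. All of these shifts were smaller than the difference between the cultures for the same gene.

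The median difference varied along the genome. Over 10582 tested genes outside small RNAs and histones, those of the X chromosome included, it was -0.36. The lowest autosome was chromosome 1, at -0.85 (1121 genes, 7.49% higher and 65.9% lower). The highest was chromosome 19, at 0.15 (681 genes, 32.6% higher and 17.2% lower). Chromosomes 18 and 13 had medians of -0.75 and -0.62. The 3 shRNA pairs gave -0.63, -1.03 and -0.88 for chromosome 1 and 0.23, -0.07 and 0.32 for chromosome 19, so chromosome 1 was low in each pair. After quantile normalization the values were -0.53 and 0.43.

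The difference also varied with the GC content of transcripts. With genes split into 5 equal bins by GC content, the median went from -0.65 in the lowest bin to 0.20 in the highest. Chromosome 19 has GC-rich genes, with a median of 57.0% against 47.5% for all genes, and chromosome 1 had 48.0%. Measured from the median of its own GC bin, the median gene of chromosome 1 was still at -0.45, with 804 of 1071 genes below 0, and that of chromosome 19 at 0.27. Chromosome 13 came to -0.06 on this measure. Chromosome copy number was not analysed here. Whether it, transcript length or GC content in library preparation bears on these values was not tested.

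**Figure D5:**
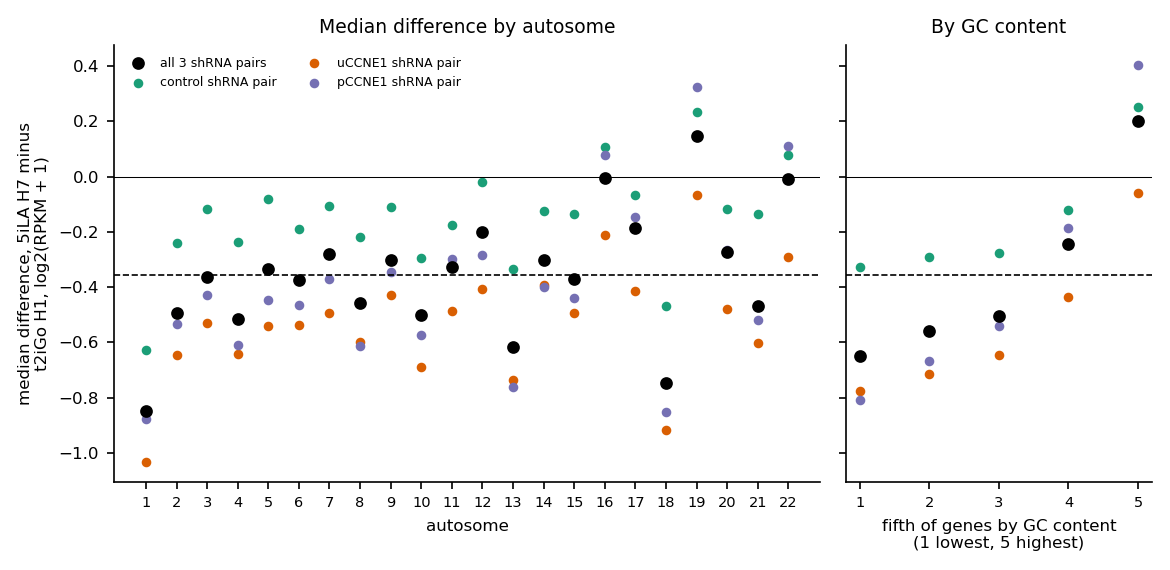
Median difference 5iLA H7 minus t2iGo H1 on the log2(RPKM + 1) scale (y axis) by autosome (left) and by GC bin (right), for all 3 shRNA pairs together (black) and for each pair (green, orange and purple). The dashed line marks the median of all tested genes outside small RNAs and histones, -0.36. Chromosome 1 is lowest and chromosome 19 highest, and the medians rise with GC content.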

How the data were processed

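The values are RPKM per gene as deposited by the authors, and the log2 values were computed here from the deposited RPKM. TopHat2 2.3.0, Cufflinks 1.2.1 and build hg19 are named in the submitters' processing notes, and strand use is not given in the sources used here. RNeasy and TruSeq RNA kits were used, per the labels' protocols. Genes with a mean of at least 1 RPKM over the 6 libraries were tested on log2(RPKM + 1) with limma 3.58.1 in R 4.3.3, with shRNA and culture as terms, moderated variances along an intensity trend and Benjamini-Hochberg adjustment at 0.05, after a test on simulated data. The model leaves 2 residual degrees of freedom. Depth was estimated from the steps between low values. Gene names matched RefSeq accessions for 96.2% of genes. Members, the 44 gene lists and the tests were chosen with earlier results of these data known. Named genes are state and lineage markers, the 12 largest called differences per direction with the same sign in all pairs and at least 5 RPKM in the higher culture (small RNAs and histones left out, among others), and up to 6 members per list; some neighbours and list members were added after their values were seen, and some genes the rule names are not reported here. Alternatives were other scalings, filters, pseudocounts and models, and leaving out each shRNA pair.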

Additional observations from a re-analysis of the deposited data

Results flagged for a closer look

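HSPA5, which encodes the endoplasmic reticulum chaperone BiP, stood out because both CCNE1 shRNA libraries were below control in 5iLA H7 and above control in t2iGo H1. It stood at 72.7, 39.3 and 49.7 RPKM in 5iLA and at 26.4, 37.9 and 41.5 RPKM in t2iGo, in the order control, uCCNE1 and pCCNE1, and did not pass the test between the cultures (0.58 ± 0.28, limma adjusted p = 0.0824). The mean log2 difference of the CCNE1 shRNA libraries from control in 5iLA minus that in t2iGo was -1.28. This difference was not tested, since each shRNA has 1 library per culture. Among the 248 named genes looked through, HSPA5 was the only gene with this pattern at a size of at least 0.5 in every library.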

How the results depend on the processing

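Of 10762 tested genes, 6326 were called, 1791 as higher and 4535 as lower in 5iLA H7. Only genes with a mean of at least 5 RPKM gave 3389 calls, 818 higher and 2571 lower, from fewer genes tested. Genes higher in 5iLA numbered 2831 after quantile normalization, 3073 after median-ratio scaling and 2986 after quantile normalization of detectable genes outside small RNAs and histones, a setting chosen after seeing the data. Genes lower in 5iLA numbered 2955 after median-ratio scaling. The cause of these shifts was not tested. Leaving out 1 shRNA pair at a time gave 4426 to 6057 calls, 1327 to 1523 higher and 2903 to 4730 lower. The shRNA serves as the replicate block of the design, and without it 5760 genes were called, 1507 higher and 4253 lower. Of the list medians recomputed under these settings, 325 moved by less than the spread between shRNA pairs and 111 by more. Of the 127 named genes followed through 13 other settings, 115 kept their direction and call in each. ZNF100, which was not called, changed sign (-0.27 to 0.18 with 1 pair left out). Depth limits the lowest values: 1 read on 2 kb stood for up to 0.0784 RPKM, in the pCCNE1 library of t2iGo.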
